A study of Homo sapiens with 6 samples.

Results

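The genes described here are those of the amino acid response that the transcription factor ATF4 is known to drive, together with the cytosolic aminoacyl-tRNA synthetases. They were taken by name: 18 synthetases, 5 transcription factors, 6 stress effectors, 10 enzymes of amino acid and one-carbon metabolism and 7 amino acid transporters. All 46 are among the 14168 genes of the deposited table, and 44 are among the 13050 genes tested, which had at least 0.5 CPM (counts scaled to library size) in at least 3 of the 6 libraries. The other two, CHAC1 and VLDLR, were below that level. CHAC1 averaged 0.309 CPM in control and 0.307 CPM in Agrin depleted cells, while VLDLR had reads in 1 library only, siAgrin 2, at 0.0218 CPM.

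HaCaT, an established line of immortalised human keratinocytes, was transfected with a control siRNA (siControl, 3 libraries) or with an siRNA against the proteoglycan Agrin (siAgrin, 3 libraries). The stated siRNA dose is 50 nM, and the cells grew on plastic in medium with serum. Both groups are the same cell line, with no change to its genome. Polyadenylated RNA was read as single reads of 75 bp, and the comparison of both groups asks which genes respond to loss of Agrin. Which of the study's Agrin siRNAs was used for sequencing is not given in the sources used here, nor is the time of harvest. The labels do not say whether the libraries of a group came from separate cultures, so p-values measure only the spread between these libraries, which may be technical.

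When amino acids run short, uncharged tRNA activates the kinase GCN2, which phosphorylates the initiation factor eIF2. Most translation then slows, while the ATF4 message, held back by upstream reading frames, is translated more, so ATF4 is set largely at the protein level. With C/EBP partners ATF4 binds composite C/EBP-ATF elements and induces transporters, biosynthetic enzymes and the synthetases that charge tRNA with its amino acid.

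The letters of such an element, TGATGNAA read on either strand, were searched in the RefSeq promoter table of GRCh38.p14, from 250 bases before to 50 bases after each start. A total of 37 of the 46 genes matched an entry by symbol or synonym; DARS, LARS, VARS, YARS, PSPH, SHMT2, PYCR1, GPT2 and SLC7A11 did not. The letters occurred for 14 of these 37 genes (37.84%), against 4.46% of all 27303 genes in the table, and in 14 of 56 member promoters (25.0%), against 3.62% of all 35114 promoters. They were found for 7 of 14 matched synthetases and 4 of 6 matched transporters. The genes were chosen by name as known ATF4 targets and as synthetases, so the higher share cannot test a link to ATF4. A gene counted if any of its listed promoters held the letters. For ASNS, SLC3A2, SLC1A4, SLC1A5, CEBPG, GARS, CARS and TARS not all listed promoters did. The 250 bases before the ASNS start are shown because ASNS is the best known target of the element, which lies from 68 to 61 bases before the start. Of the other 13 genes with the letters, 7 are shown as short windows, a selection of genes that rose after Agrin knockdown (SLC3A2, SLC7A1, SLC1A4) and of genes that did not pass the test (SLC1A5, CEBPG, GARS, NARS). All are read in the direction of the gene, with the matching letters in capitals, and TTNCATCA is the same element on the opposite strand.
ASNS upstream, chr7:97872409-97872658, minus strand: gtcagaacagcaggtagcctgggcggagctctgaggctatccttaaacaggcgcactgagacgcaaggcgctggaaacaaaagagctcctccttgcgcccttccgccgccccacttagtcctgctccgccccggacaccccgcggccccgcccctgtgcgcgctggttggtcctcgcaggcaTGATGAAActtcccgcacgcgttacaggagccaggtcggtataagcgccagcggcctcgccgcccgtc
SLC3A2, chr11:62881725-62881748, plus strand: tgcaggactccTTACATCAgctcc
SLC7A1, chr13:29595663-29595692, minus strand: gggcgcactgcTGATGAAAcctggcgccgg
SLC1A4, chr2:64989381-64989410, plus strand: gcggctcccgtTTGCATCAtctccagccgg
SLC1A5, chr19:46784893-46784922, minus strand: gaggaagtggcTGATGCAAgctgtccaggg
CEBPG, chr19:33374060-33374089, plus strand: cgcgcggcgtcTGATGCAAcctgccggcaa
GARS, chr7:30594834-30594863, plus strand: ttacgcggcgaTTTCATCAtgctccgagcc
NARS, chr18:57621804-57621833, minus strand: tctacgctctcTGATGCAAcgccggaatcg
The letters were present for 4 of the 9 matched genes that rose and for 9 of the 25 matched genes that did not pass the test. A match describes the sequence only and does not show a bound site.

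AGRN itself, on which the knockdown rests, averaged 821 ± 20.9 CPM in control cells but 401 ± 12.3 CPM in Agrin depleted cells (SD, n = 3), or 48.8% of control. The libraries held 40958553 to 43312708 reads in the listed genes. All 7 keratinocyte markers (KRT5, KRT14, TP63, DSG3, SFN, ITGB4 and PERP) were listed, with a summed level of 8880 to 9217 CPM in siControl libraries and of 10010 to 11357 CPM in siAgrin ones. All 7 fibroblast markers were listed too, at a summed 12.2 to 19.6 CPM in siControl libraries against 9.47, 46.7 and 21.9 CPM in siAgrin 1, 2 and 3, with PDGFRB at 0 in siControl 1 and 3. Library siAgrin 2 was thus the highest for these markers, and in many of the genes below it was the siAgrin library closest to control, so counts are also given without it. The part of the fibroblast markers in the results was not tested. In RNA from a bulk culture, fewer cells of a kind and less RNA per cell cannot be told apart.

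Agrin knockdown raised 13 of the 44 tested genes and lowered 1. The call rule was an adjusted p under 0.01 in limma, and by it 9.14% of all tested genes rose and 9.07% fell, against 29.5% and 2.27% of the 44. The 13 were 6 transporters (SLC7A5, SLC3A2, SLC7A11, SLC7A1, SLC38A2 and SLC1A4), 4 enzymes (ASNS, PHGDH, SHMT2 and MTHFD2), the feedback regulator TRIB3 and the synthetases VARS and YARS, while the synthetase WARS fell. None of the 44 changed more than 2-fold. Over all tested genes 1.55% passed the test with a change beyond 2-fold, too small a share for this to set the 44 apart. Log2 fold changes, on log2(CPM + 0.5) with siAgrin against siControl, ran from -0.78 to 0.82 with a median of 0.16, beside a median of -0.00 over all tested genes. They were above 0 for 37 of the 44, against 49.6% of all tested genes. All siAgrin libraries lay above all siControl libraries for 20 of the 44 (25.0% of all tested genes), and all lay below for 2, WARS and CEBPG (24.9%). Together the 46 genes took 7449, 7358 and 7447 CPM in siControl 1, 2 and 3 and 9448, 8748 and 9178 CPM in siAgrin 1, 2 and 3. Most of this gain came from SLC7A5 and SLC3A2.

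**Figure D1:**
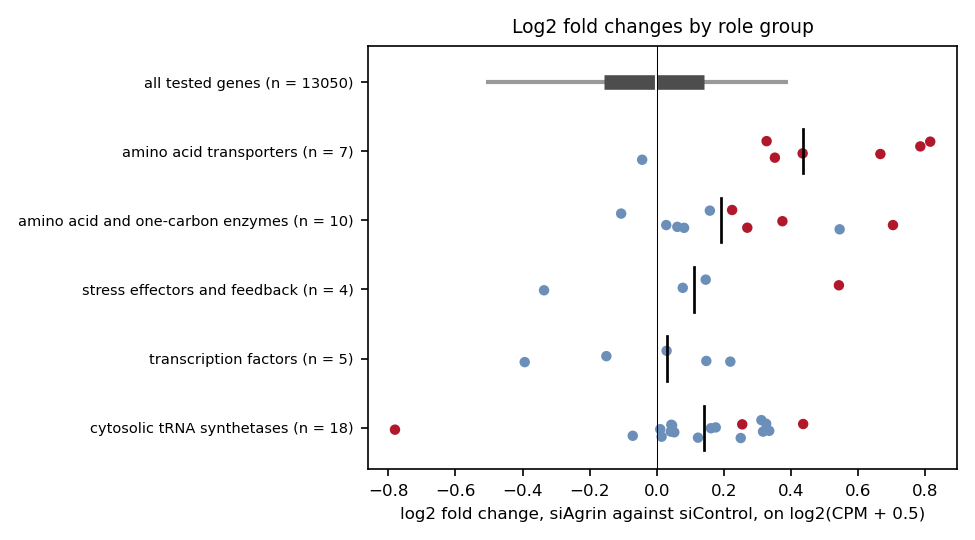
Log2 fold change of each tested gene on the x axis (siAgrin against siControl, on log2(CPM + 0.5)), one row per role group, with red points for genes that passed the test, blue points for those that did not and a black line at the group's median. The top row gives all 13050 tested genes as their 5th to 95th percentiles (thin line, -0.51 to 0.39) and 25th to 75th (thick bar, -0.16 to 0.14); the transporters have the highest group median, 0.43.

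Transporters gave the clearest rise, with 6 of 7 called and no overlap between the groups in those 6. The group's median log2 fold change was 0.43, and its summed level went from 3171, 3019 and 3104 CPM in siControl 1, 2 and 3 to 4775, 4338 and 4684 CPM in siAgrin 1, 2 and 3. Most of that gain came from SLC7A5 and SLC3A2, whose means went from 1609 to 2559 CPM and from 446 to 769 CPM. The plot of log2 fold changes by role places the 6 called transporters between 0.33 and 0.82 and leaves SLC1A5 just below 0.

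SLC7A5 encodes LAT1, the light chain of the exchanger that takes up leucine and other large neutral amino acids, and lies on chromosome 16 (87830023 to 87869507, minus strand, GENCODE v44). It measured 1611, 1594 and 1623 CPM in siControl 1, 2 and 3 and 2701, 2359 and 2617 CPM in siAgrin 1, 2 and 3. The siControl libraries were nearly equal, and the lowest siAgrin library was far above them. Mean levels of 1609 ± 14.5 and 2559 ± 178 CPM (SD, n = 3) gave a 1.59-fold rise (log2 fold change 0.67, standard error 0.07, limma adjusted p = 5.6e-04). Near-identical SLC7A5 pseudogene copies exist in the genome, so its reads may be split between copies.

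SLC3A2 encodes CD98hc (4F2hc), the heavy chain that carries LAT1 and xCT to the cell surface. Its levels were 464, 431 and 442 CPM in siControl and 799.9, 725 and 783 CPM in siAgrin libraries, so the groups lay well apart. The means of 446 ± 16.7 and 769 ± 39.3 CPM (SD, n = 3) gave a log2 fold change of 0.79 (standard error 0.06, limma adjusted p = 1.5e-04). SLC7A11 encodes xCT, the cystine and glutamate exchanger that feeds glutathione synthesis and pairs with the same heavy chain. It had the largest log2 fold change of all 44, at 0.82 (standard error 0.13, limma adjusted p = 0.0033). It measured 39.7, 32.3 and 32.7 CPM in siControl and 70.3, 49.5 and 66.9 CPM in siAgrin libraries. Here siAgrin 2 was the lowest of its group and siControl 1 the highest of its own, and the groups still did not overlap.

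The other three risers were smaller in size. SLC7A1 encodes CAT-1, the main carrier of arginine and lysine, and went from 307, 295 and 296 CPM to 366, 381 and 379.9 CPM (log2 fold change 0.33, limma adjusted p = 0.0011). SLC1A4 encodes ASCT1, an exchanger of alanine, serine and cysteine, and went from 31.7, 33.6 and 34.6 CPM to 40.9, 48.4 and 46.5 CPM (log2 fold change 0.43, limma adjusted p = 0.0028). In both genes siAgrin 1, not siAgrin 2, was the siAgrin library closest to control. SLC38A2 encodes SNAT2, the sodium-coupled transporter of small neutral amino acids that adapts to amino acid supply, and went from 489, 399.9 and 431 CPM to 581, 536 and 564 CPM (log2 fold change 0.35, limma adjusted p = 0.0095). Its siControl libraries were widely spread and its call is near the threshold: edgeR gave an adjusted p of 0.0101 on the recovered reads.

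SLC1A5 was the exception. It encodes ASCT2, the glutamine transporter, and measured 228, 233 and 245 CPM in siControl and 217, 241 and 228 CPM in siAgrin libraries, with overlapping groups. Its log2 fold change was -0.04, with a 95% confidence interval from -0.16 to 0.08 and a limma adjusted p of 0.53. With 1 library left out, 6 transporters rose without siAgrin 2, and 5 rose without siControl 1 (SLC1A4 lost) or siAgrin 1 (SLC38A2 lost). SLC7A5 and SLC3A2 were the 2 that rose without siControl 2, siControl 3 or siAgrin 3.

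**Figure D2:**
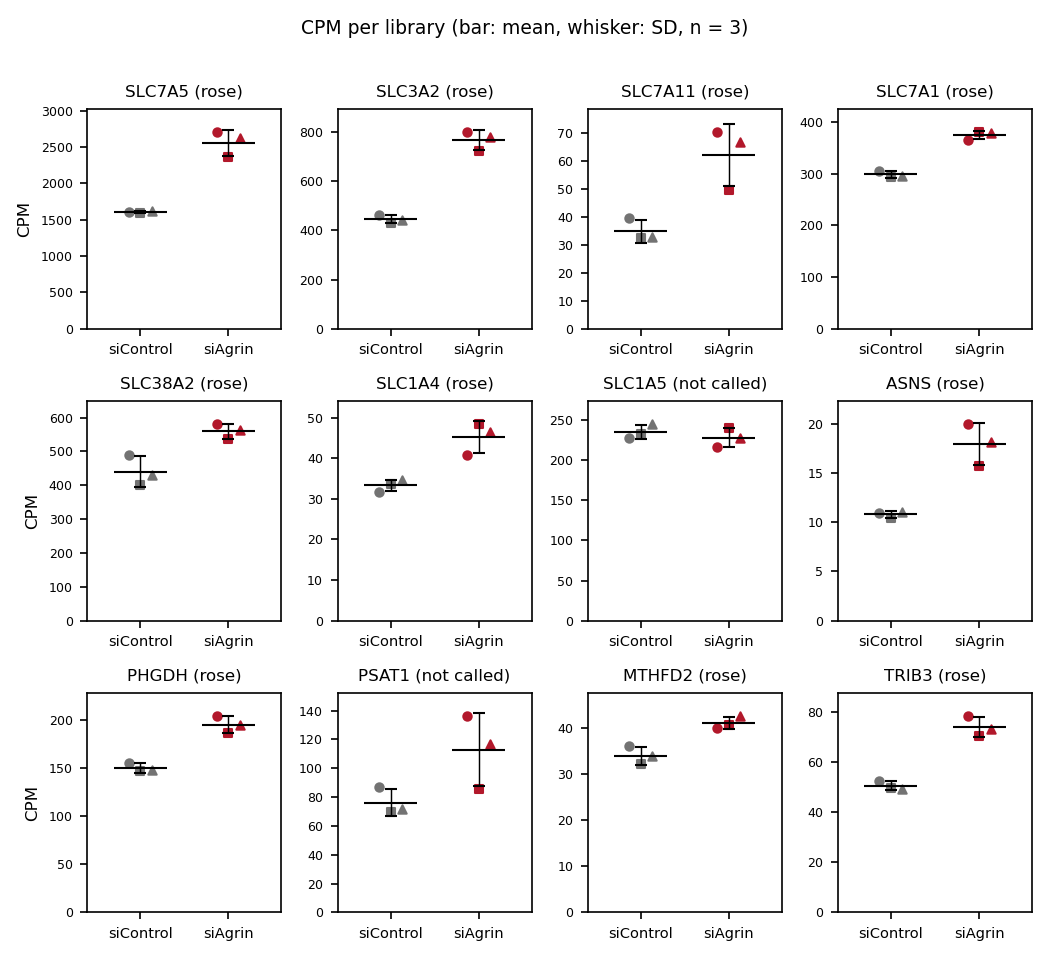
CPM on the y axis, from 0, for the 7 transporters, 4 enzymes and TRIB3 in each library (grey siControl, red siAgrin; circle, square and triangle for replicates 1, 2 and 3), with the mean as a bar and the SD as a whisker (n = 3). SLC7A5 sits at 1594 to 1623 CPM in siControl and 2359 to 2701 CPM in siAgrin libraries, while the SLC1A5 and PSAT1 groups overlap.

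Among the enzymes 4 of 10 rose and none fell, with a median log2 fold change of 0.19. ASNS, which makes asparagine from aspartate and glutamine, changed most. It lies on chromosome 7 (97851677 to 97872542, minus strand, GENCODE v44) downstream of the sequence printed above. ASNS measured 10.9, 10.4 and 11.1 CPM in siControl and 20.0, 15.8 and 18.2 CPM in siAgrin libraries, so even the lowest siAgrin library was clearly above control. The means of 10.8 ± 0.348 and 18.0 ± 2.11 CPM (SD, n = 3) gave a log2 fold change of 0.70 (standard error 0.09, limma adjusted p = 0.0010).

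The serine pathway was split. PHGDH, which takes 3-phosphoglycerate from glycolysis into serine synthesis, rose from 156, 147 and 148 CPM to 204, 187 and 195 CPM (log2 fold change 0.37, limma adjusted p = 0.0011). PSAT1, the transaminase of the next step, measured 86.7, 70.0 and 71.9 CPM in siControl and 136, 85.9 and 117 CPM in siAgrin libraries. The value in siAgrin 2 was below that in siControl 1, and the log2 fold change of 0.55 (standard error 0.16) did not pass (limma adjusted p = 0.029). PSPH, the phosphatase of the last step, had a log2 fold change of 0.06 (95% confidence interval -0.09 to 0.22).

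SHMT2 and MTHFD2, which carry the serine carbon into folate in mitochondria, both rose with small effects. SHMT2 measured 129, 126 and 131 CPM in siControl and 157, 141 and 154 CPM in siAgrin libraries (log2 fold change 0.22, limma adjusted p = 0.0098). MTHFD2 measured 35.9, 32.1 and 33.9 CPM in siControl and 40.0, 40.6 and 42.5 CPM in siAgrin libraries (log2 fold change 0.27, limma adjusted p = 0.0076). The SHMT2 call is the least firm: it was lost with no filter on low genes, with genes restricted to those averaging 5 CPM or more, and under robust fitting. ALDH18A1, which opens proline synthesis from glutamate, had no overlap between groups but did not pass (log2 fold change 0.16, limma adjusted p = 0.031). The remaining enzymes, PYCR1 of proline synthesis, the alanine transaminase GPT2 and the cysteine-forming CTH, had log2 fold changes of 0.03, -0.11 and 0.08. With 1 library left out the enzymes that rose numbered 3 without siControl 1, 1 (ASNS) without siControl 2, 2 (ASNS and PHGDH) without siControl 3, 3 without siAgrin 1, 5 without siAgrin 2 (PSAT1 added) and 1 (ASNS) without siAgrin 3.

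Of the stress effectors, TRIB3 alone passed the test. TRIB3 is a pseudokinase that binds ATF4 and limits its activity, and is itself an ATF4 target. Its transcript measured 52.7, 49.7 and 49.4 CPM in siControl and 78.4, 70.4 and 73.1 CPM in siAgrin libraries. Both groups were tight and far apart, with means of 50.6 ± 1.81 and 74.0 ± 4.06 CPM (SD, n = 3) and a log2 fold change of 0.54 (standard error 0.05, limma adjusted p = 3.9e-04). SESN2, a leucine sensor upstream of mTORC1, had a log2 fold change of 0.08 and the secreted stanniocalcin STC2 one of 0.15, neither past the test.

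DDIT4 (REDD1), an mTORC1 inhibitor that hypoxia and glucocorticoids also induce, pointed the other way. It measured 772, 1018 and 956 CPM in siControl and 631, 869.7 and 680.5 CPM in siAgrin libraries, so siAgrin 2 lay above siControl 1. The log2 fold change of -0.34 did not pass (standard error 0.14, limma adjusted p = 0.091). Without siAgrin 2, DDIT4 passed the test at a log2 fold change of -0.47.

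None of the 5 transcription factors passed the test in either direction with limma, edgeR or DESeq2, although at an unadjusted p under 0.05 in limma 1 was higher and 2 were lower. At that looser threshold 23.5% of all tested genes were higher and 24.0% lower. ATF4 measured 197, 199 and 203 CPM in siControl and 209.9, 202 and 199 CPM in siAgrin libraries, with overlapping groups. Its log2 fold change was 0.03, with a 95% confidence interval from -0.06 to 0.12 (limma adjusted p = 0.58). The ATF4 transcript therefore differed by less than the spread between libraries. Of the 26 tested members other than synthetases, 11 rose, against 9.14% of all tested genes, and 15 did not pass the test. The 11 include ASNS, TRIB3, SLC7A11, SLC3A2 and PHGDH. SESN2, DDIT3 and DDIT4 were among the 15, and CHAC1 was too low to be tested. DDIT3 (CHOP), the pro-apoptotic partner of C/EBP proteins, measured 10.5, 12.2 and 12.2 CPM in siControl and 11.8, 17.0 and 12.6 CPM in siAgrin libraries. Only siAgrin 2 stood out, and the log2 fold change of 0.22 did not pass (limma adjusted p = 0.22). DDIT3 and the synthetase gene MARS overlap by 982 bases on opposite strands, and since the strand setting of the counting is not given in the sources used here, their reads may be mixed there.

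The C/EBP partners and ATF5 did not pass the test either. CEBPB was higher in all siAgrin libraries at a log2 fold change of 0.15 (limma adjusted p = 0.088). CEBPG, a known dimer partner of ATF4, was lower in all siAgrin libraries at -0.15, with a limma adjusted p of 0.031. ATF5, another factor translated under eIF2 phosphorylation, had a log2 fold change of -0.39 and a limma adjusted p of 0.040. It measured 7.30, 7.80 and 6.36 CPM in siControl and 6.42, 4.72 and 4.93 CPM in siAgrin libraries. The groups overlapped by a narrow margin, and ATF5 passed the test at -0.52 without siAgrin 1.

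**Figure D3:**
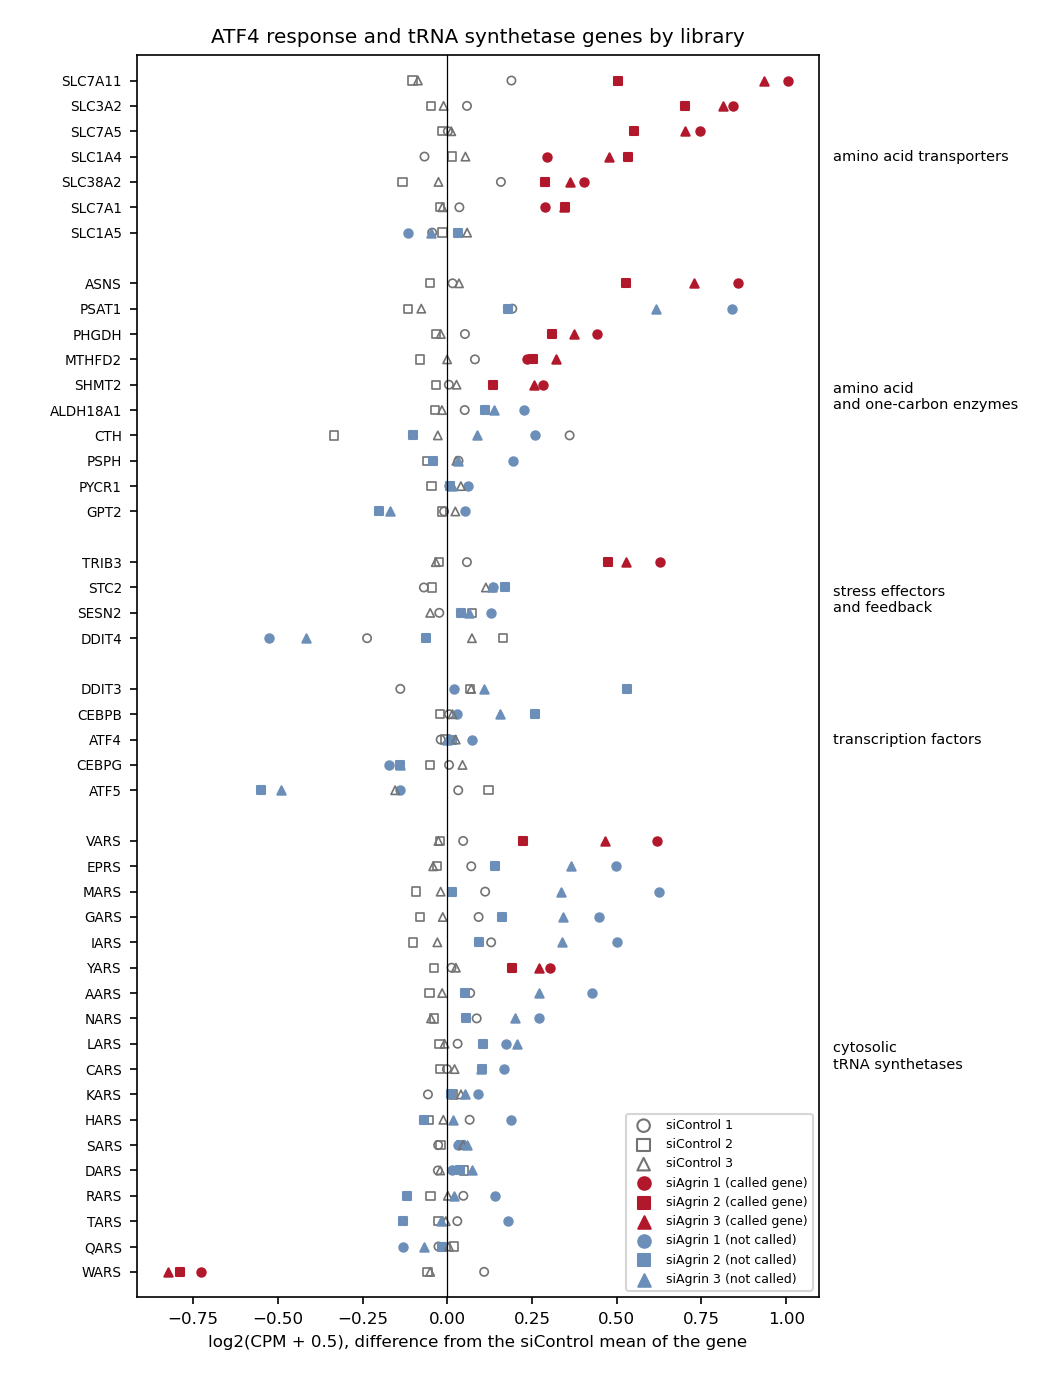
Each of the 44 tested genes in each library, as the difference of its log2(CPM + 0.5) from the gene's siControl mean (x axis), grouped by role and ordered by log2 fold change (open symbols siControl, filled symbols siAgrin, red where the gene passed the test, blue where it did not). Among the synthetases the siAgrin 2 square lies nearest to control in many rows, and WARS is the one gene whose siAgrin libraries all lie far to the left.

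The synthetases moved little, with 2 of 18 risen and 1 fallen. These are 11.1% and 5.56%, near the 9.14% and 9.07% of all tested genes. Their median log2 fold change was 0.14. Values were above 0 for 16 of the 18, against 49.6% of all tested genes. VARS, which charges valine tRNA, measured 46.4, 44.2 and 44.0 CPM in siControl and 69.2, 52.5 and 62.1 CPM in siAgrin libraries (log2 fold change 0.44, standard error 0.09, limma adjusted p = 0.0085). The siAgrin libraries of VARS were widely spread, with siAgrin 2 the lowest. YARS, which charges tyrosine tRNA, was tighter, at 82.2, 79.4 and 83.0 CPM in siControl and 101, 93.1 and 98.5 CPM in siAgrin libraries (log2 fold change 0.25, standard error 0.04, limma adjusted p = 0.0040).

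WARS, the tryptophan synthetase, went against the rest. It is known as a gene that interferon-gamma also induces, and lies on chromosome 14 (100333790 to 100376805, minus strand, GENCODE v44). WARS measured 132, 118 and 118 CPM in siControl and 73.8, 70.8 and 69.0 CPM in siAgrin libraries. The siAgrin libraries were nearly equal and far below every siControl library. The means of 123 ± 8.21 and 71.2 ± 2.46 CPM (SD, n = 3) gave a log2 fold change of -0.78 (standard error 0.06, limma adjusted p = 1.5e-04), and WARS fell with any of the 6 libraries left out, at -0.81 to -0.73.

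Of the other 15 synthetases, 4 had all siAgrin libraries above all siControl libraries without passing the test (25.0% of all tested genes, called or not). They were EPRS (log2 fold change 0.34, limma adjusted p = 0.018), GARS (0.32, limma adjusted p = 0.015), LARS (0.16, limma adjusted p = 0.020) and CARS (0.12, limma adjusted p = 0.048). EPRS, which charges both glutamate and proline tRNA, measured 164, 153 and 152 CPM in siControl and 221, 173 and 202 CPM in siAgrin libraries. GARS, the glycine enzyme, measured 160.3, 142 and 149 CPM in siControl and 205, 168 and 191 CPM in siAgrin libraries. In both genes siAgrin 2 was again closest to control. MARS, IARS, AARS and NARS, for methionine, isoleucine, alanine and asparagine, had overlapping groups and log2 fold changes of 0.33, 0.31, 0.25 and 0.18. DARS, HARS, KARS, SARS, RARS and TARS lay between 0.01 and 0.05, and QARS, the glutamine enzyme, was at -0.07 (95% confidence interval -0.17 to 0.03).

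**Figure D4:**
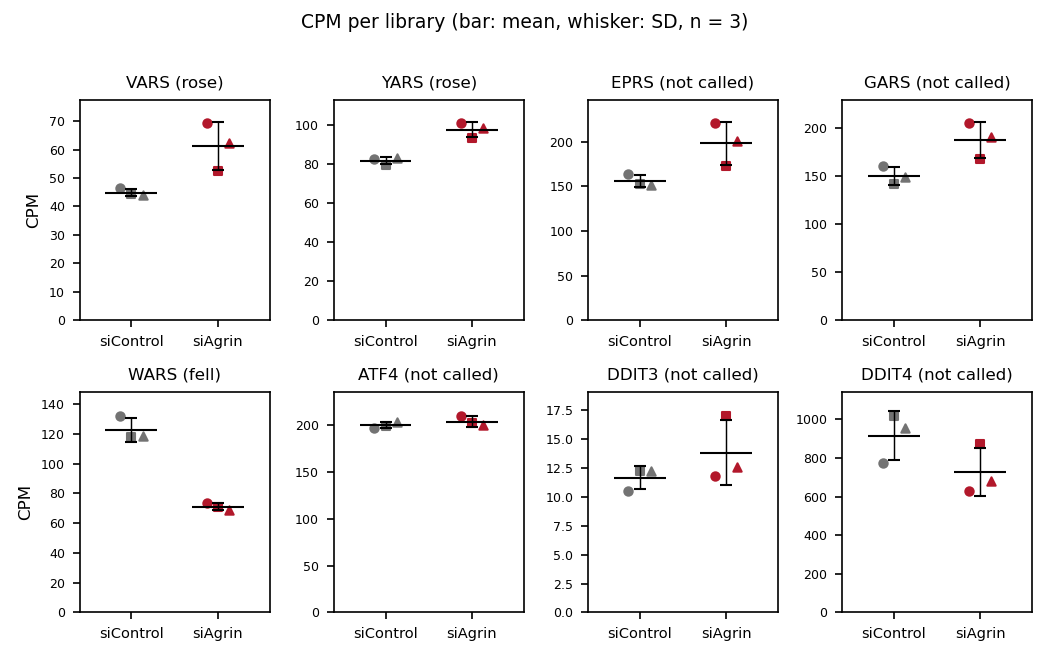
CPM on the y axis, from 0, for 5 synthetases, ATF4, DDIT3 and DDIT4 in each library (grey siControl, red siAgrin; circle, square and triangle for replicates 1, 2 and 3), with the mean as a bar and the SD as a whisker (n = 3). WARS drops from 118 to 132 CPM to 69.0 to 73.8 CPM, ATF4 stays between 197 and 209.9 CPM in all libraries, and the red square (siAgrin 2) is the lowest siAgrin point for VARS, YARS, EPRS and GARS.

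The same order of libraries recurred across the synthetases. Library siAgrin 2 was the lowest of the siAgrin libraries for 13 of the 18 and siAgrin 1 the highest for 14, while siControl 1 was the highest siControl library for 12. Summed over all 18, the synthetases took 2457, 2324 and 2361 CPM in siControl 1, 2 and 3 and 2795, 2408 and 2628 CPM in siAgrin 1, 2 and 3, so that siAgrin 2 lay between siControl 1 and 3. The 8 synthetases of the multisynthetase complex (DARS, EPRS, IARS, KARS, LARS, MARS, QARS and RARS) held no call in limma (EPRS, IARS and LARS passed in DESeq2), with a median log2 fold change of 0.11, and the other 10 had a median of 0.15. The synthetase count moved with the library left out, and so did the share of all tested genes that rose. Without siAgrin 2, 9 synthetases rose (AARS, EPRS, GARS, IARS, LARS, MARS, NARS, VARS and YARS), beside 12.8% of all tested genes. None rose without siAgrin 3 (2.09% of all tested genes) or without siControl 1, 2 or 3 (5.92%, 2.51% and 2.88%). Without siAgrin 1, 2 synthetases rose (9.2% of all tested genes).

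**Figure D5:**
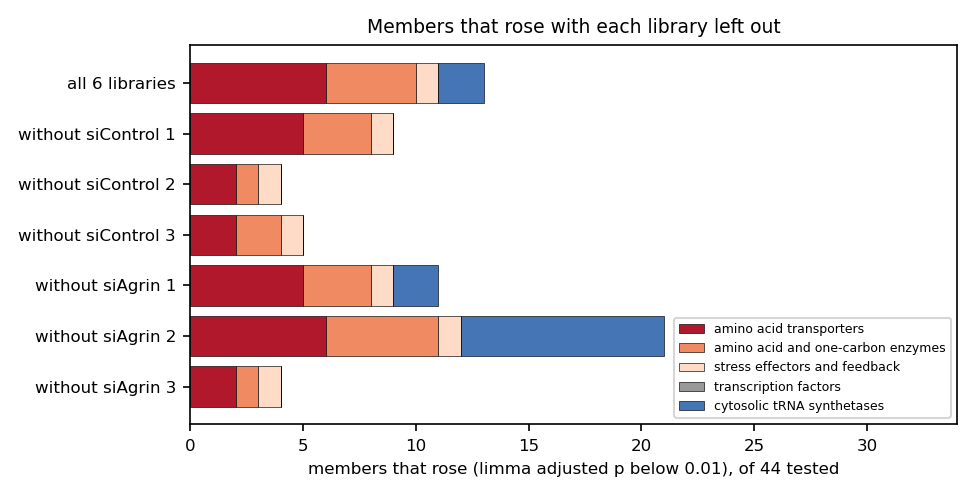
Number of tested genes that rose (x axis, limma adjusted p below 0.01, of 44) with all 6 libraries and with each library left out in turn, coloured by role group. The count runs from 4 without siControl 2 or siAgrin 3 to 21 without siAgrin 2, and the synthetases (blue) supply 9 of those 21.

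Over all 44 genes the count that rose was 9, 4 and 5 without siControl 1, 2 and 3, and 11, 21 and 4 without siAgrin 1, 2 and 3, as the plot of calls with each library left out shows. The share of all tested genes that rose moved along, at 5.92%, 2.51% and 2.88% without siControl 1, 2 and 3 and 9.2%, 12.8% and 2.09% without siAgrin 1, 2 and 3. SLC7A5, SLC3A2, ASNS and TRIB3 rose and WARS fell in all 6 of these fits and in all 17 alternatives tried. PHGDH rose in 4 of the 6, SLC7A11, SLC7A1 and MTHFD2 in 3, YARS, VARS, SLC1A4 and SLC38A2 in 2 and SHMT2 in 1.

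Levels between genes can be compared only per length, here as mean CPM per kilobase of the canonical transcript. On that scale DDIT4 was the most abundant of the 46 in siControl libraries at 525, followed by SLC7A5 at 353, SLC3A2 at 237 and ATF4 at 141. In siAgrin libraries SLC7A5 was first at 562, with DDIT4 at 417 and SLC3A2 at 408. ASNS and SLC7A11 were among the low ones, at 4.53 and 3.62 in siControl and 7.55 and 6.45 in siAgrin libraries, so the log2 fold changes at the top of the list came from genes of very different abundance.

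Neighbouring parts of the pathway were read from further lists. None of 16 genes of the eIF2 arm passed the test in either direction (the 4 eIF2 kinases, their regulators, eIF2 and eIF2B subunits and the PPP1R15 phosphatase subunits), with a median log2 fold change of 0.04. At an unadjusted p under 0.05, 7 of these were higher and 1 was lower (23.5% and 24.0% of all tested genes), and edgeR called none while DESeq2 called 1, EIF2S1, as higher. EIF2S1, the eIF2 subunit that the kinases phosphorylate, also passed without siAgrin 2. Of 17 mitochondrial synthetases 4 rose and none fell, with a median of 0.08. Among them were SARS2 (10.8 to 13.7 CPM, log2 fold change 0.33, limma adjusted p = 0.0068), YARS2 (0.29) and NARS2 (0.24). This count was 1 without siControl 1 or siAgrin 1, 0 without siControl 2, siControl 3 or siAgrin 3, and 6 without siAgrin 2 or in DESeq2. No call was made among 6 genes of the phenylalanine synthetase and the complex scaffold, with 2 higher and none lower at an unadjusted p under 0.05 (23.5% and 24.0% of all tested genes), nor by edgeR or DESeq2, although FARSB passed without siAgrin 2.

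Of 11 further genes tied to ATF4 in other cells, 2 rose and 1 fell. LAMP3, a lysosomal membrane protein, went from 2.00 to 3.05 CPM (log2 fold change 0.50, limma adjusted p = 0.0036), and HERPUD1, of the degradation of misfolded proteins at the endoplasmic reticulum, had a log2 fold change of 0.32. JDP2, a repressor of the AP-1 family, fell by 0.37 on the log2 scale. No gene of this list passed without siAgrin 3 or without any one siControl library, HERPUD1 was lost and GADD45A added as higher without siAgrin 1, and ATF3 was added as lower without siAgrin 2. Of 11 further serine and one-carbon genes, SHMT1, the cytosolic partner of SHMT2, rose from 61.6 to 87.2 CPM (log2 fold change 0.50, limma adjusted p = 4.2e-04) and SFXN1, the mitochondrial serine carrier, rose at 0.28. SHMT1 rose with any library left out, SFXN1 only while siAgrin 2 was the one left out. No call was made among 12 further amino acid transporters, with a median log2 fold change of 0.05 and with 3 higher and 2 lower at an unadjusted p under 0.05 (23.5% and 24.0% of all tested genes). By edgeR none passed and by DESeq2 1 was lower.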

How the data were processed

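RNA of 6 HaCaT libraries (3 siControl, 3 siAgrin) was analysed. STAR 2.6.1d (alignment to hg38), SAMtools, HTSeq with GENCODE release 29 and edgeR were used by the authors; the deposited CPM values are reads per gene scaled by the authors to edgeR's library size. The strand setting and any gene filter are not given in the sources used here. All values (100%) lay within 0.01 of a whole multiple of 1 read, which gave back the reads (median 42367900 per library). Counting error is thus small except for the lowest genes. No column was left out. The labels and the paper's methods differ in RNA kit, RNA input and culture medium.

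Groups were compared two-sided with limma 3.58.1 (limma-trend, R 4.3.3) on log2(CPM + 0.5). The 13050 genes that reached 0.5 CPM in 3 or more libraries entered, and p-values were adjusted over all of them by Benjamini-Hochberg. The threshold of 0.01 is the paper's false discovery rate, used without the change of more than 2-fold that the paper also required. None of the 44 genes met both conditions. An exact permutation test of 3 against 3 libraries cannot go below p = 0.1 and was not used. Adding a constant understates the change of low genes. Alternatives were 0.1 or 2 CPM added, no filter, genes averaging 5 CPM or more, median-ratio or TMM scaling, robust fitting, edgeR 4.0.16 and DESeq2 1.42.0 on the recovered reads, an adjusted p below 0.05, a replicate block and each library left out. The script was tested on simulated data. Genes and lists were chosen with earlier results of these data known. The text names AGRN, all 46 members and, of each other list, up to 4 called genes with the smallest p; some are not reported here. Lengths, overlaps and gene positions are from GENCODE v44 and promoters from RefSeq, both on GRCh38; the deposited table itself gives no coordinates used here.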

Additional observations from a re-analysis of the deposited data

How the results depend on the processing

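The number of members that rose, 13, became 20 at an adjusted p below 0.05 and lay between 10 (no filter) and 18 (DESeq2) under the other filters, added constants, scalings and tools, with edgeR at 12. It ran from 4 to 21 with 1 library left out. The number that fell, 1 (WARS), became 3 at an adjusted p below 0.05 and ran from 1 to 2 with 1 library left out. Of the synthetases, 2 rose, against 1 with no filter, 6 in DESeq2 and 7 at an adjusted p below 0.05, and 0 to 9 with 1 library left out; 1 fell in every setting. Over all tested genes DESeq2 called 1702 up and 1659 down, against 1193 and 1184, and an adjusted p below 0.05 called 2382 and 2420. No member with a call changed direction in any setting. The median log2 fold change over all genes stayed within 0.02 of 0, so scaling did not shift directions. The cause of these differences in count was not tested.

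The replicate numbers were shared between groups, and deviations of same-numbered libraries correlated at 0.53, 0.38 and -0.00. Correlations were -0.55 for siControl 1 with siAgrin 2 and -0.36 for siControl 2 with siAgrin 1, while siControl 3 correlated best with siAgrin 2 (0.35). Deviations were taken from each group's mean, so these values are not independent and cannot settle whether the numbers pair libraries. The main fit did not pair them. With replicate number as a block, 22 members rose and 3 fell (ATF5, DDIT4 and WARS), 9 synthetases rose, and 1952 and 2014 genes were called over all tested genes. With 3 libraries a group, small differences are limited by the spread between libraries rather than by depth.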

Other observations

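Enzymes of amino acid metabolism outside the ATF4 list moved in both directions, and these lists were also chosen with earlier results known. Of 16 tested, 2 rose and 4 fell. GLUL, which makes glutamine from glutamate, measured 448, 552 and 567 CPM in siControl and 185, 239 and 189.8 CPM in siAgrin libraries (log2 fold change -1.35, limma adjusted p = 2.8e-04). The glutamate transaminase GOT1 rose from 87.2 to 134 CPM (log2 fold change 0.62, limma adjusted p = 3.4e-04). ASS1, the step of arginine synthesis from citrulline, measured 106, 126 and 127 CPM in siControl and 37.8, 60.0 and 42.3 CPM in siAgrin libraries (log2 fold change -1.37, limma adjusted p = 7.9e-04). The methionine adenosyltransferase MAT2A fell by 0.81 on the log2 scale, and the branched-chain transaminase BCAT1 fell from 55.4 to 36.6 CPM. GLUL, ASS1 and GOT1 passed with any library left out; MAT2A passed in 2 of those 6 fits and BCAT1 in 4. GLUL and ASS1 were thus changed more than 2-fold, beyond any of the 44 tested members.

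Of 21 tested genes of amino acid sensing around mTORC1 (MTOR and RPTOR included), 2 rose and 1 fell. These are 9.52% and 4.76%, beside 9.14% and 9.07% of all tested genes. LAMTOR5 rose from 46.7 to 56.8 CPM (log2 fold change 0.28, limma adjusted p = 0.0017) and NPRL3 rose at a log2 fold change of 0.25. RRAGB fell from 10.6 to 8.03 CPM (-0.38). The other 18 did not pass the test, and the list's median log2 fold change was 0.13. None of the 21 passed without siControl 2, siControl 3 or siAgrin 3, fits in which 2.51%, 2.88% and 2.09% of all tested genes rose. LAMTOR5 alone passed without siControl 1 (5.92% of all tested genes rose).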
